A study of Mus musculus with 12 samples.

Results

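Hoxb13 binding in the ventricles of CD-1 mice at postnatal day 15 was described from the single combined peak list of the Hoxb13 libraries, taken whole. The list held 22284 peaks of the 52818 in the series, and it rests on 6 of its 12 libraries. These were 3 Hoxb13 precipitates, numbered 4 to 6 in the titles, made with the GeneTex antibody GTX129245, and 3 inputs with the same numbers, which were sheared chromatin kept back before precipitation. CD-1 is an outbred strain, and no genotype or treatment other than the precipitation set the groups apart. The series was made to find where Meis1 and Hoxb13 sit on the genome of the mouse heart. Its protocols name 3 hearts whose chromatin was divided between antibodies to the factors, while the titles number the libraries of each factor separately. The list gives no value per library and none for the input, so no spread between hearts can be given, precipitate and input cannot be seen apart, and read depth was unknown. A ventricle also holds several cell types, and a peak does not show which of them it came from. The list carries no expression values, so the tissue label could not be checked against its markers.

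Hoxb13 belongs to the posterior end of the HoxB cluster, and like other Hox proteins it binds DNA through a homeodomain. Posterior Hox proteins favour short AT-rich sequences, and Hox proteins often bind beside TALE homeobox partners such as Meis and Pbx. In the mouse heart Hoxb13 and Meis1 have been linked to the withdrawal of cardiomyocytes from the cell cycle after birth, with the calcium-dependent phosphatase calcineurin acting on Hoxb13.

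The DNA at the strongest promoter peaks is shown first, because peaks at gene starts make up the largest class. The first 5 sequences lie at the strongest promoter peaks whose summit falls in a RefSeq promoter window (GRCm38.p6). The other 3 belong to leading members of gene lists described below, and each held a motif match. The same rule gave runs at Hadhb, Hk1 and Cdkn2c, which held no match to the motifs searched and are not shown. Each run has 120 bases, all upstream of the RefSeq start, 5′ to 3′ on the strand of the gene. It is centred on the summit where that keeps it before the start. The summits of Foxj3, Alcam and Kcnh2 lay 29, 19 and 5 bp into the gene, outside the runs shown. The first bases of the Alcam run also lie beyond the edge of its peak. Capitals mark matches to the motifs searched. Stx16, a syntaxin of vesicle fusion, is at chr2:174076118-174076237 (plus strand), and Slc44a1, a choline transporter, at chr4:53440287-53440406 (plus strand). Upp2, a uridine phosphorylase, is at chr2:58567167-58567286 (plus strand), and Foxj3, a forkhead factor, at chr4:119539541-119539660 (plus strand). Alcam, a cell adhesion molecule, is at chr16:52453082-52453201 (minus strand), and Kcnh2, a repolarising potassium channel, at chr5:24329592-24329711 (minus strand). Atp5b, the beta subunit of ATP synthase, is at chr10:128083136-128083255 (plus strand), and Arntl, which encodes the clock activator BMAL1, at chr7:113207239-113207358 (plus strand).
Stx16: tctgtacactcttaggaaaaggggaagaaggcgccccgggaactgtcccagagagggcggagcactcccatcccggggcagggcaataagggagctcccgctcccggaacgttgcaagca
Slc44a1: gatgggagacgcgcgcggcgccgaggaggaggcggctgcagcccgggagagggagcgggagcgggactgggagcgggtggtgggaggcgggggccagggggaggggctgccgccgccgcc
Upp2: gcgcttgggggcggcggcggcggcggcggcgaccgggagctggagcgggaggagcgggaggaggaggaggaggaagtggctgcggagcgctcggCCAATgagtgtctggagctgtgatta
Foxj3: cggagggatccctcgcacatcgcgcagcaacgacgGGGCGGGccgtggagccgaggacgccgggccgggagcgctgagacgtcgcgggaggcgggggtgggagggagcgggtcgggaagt
Alcam: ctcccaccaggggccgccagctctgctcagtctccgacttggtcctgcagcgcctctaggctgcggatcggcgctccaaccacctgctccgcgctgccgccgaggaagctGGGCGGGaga
Kcnh2: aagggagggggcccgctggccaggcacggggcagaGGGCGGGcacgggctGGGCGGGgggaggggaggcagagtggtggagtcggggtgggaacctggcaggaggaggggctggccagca
Atp5b: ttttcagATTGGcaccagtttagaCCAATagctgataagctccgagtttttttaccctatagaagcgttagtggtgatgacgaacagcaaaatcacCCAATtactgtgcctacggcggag
Arntl: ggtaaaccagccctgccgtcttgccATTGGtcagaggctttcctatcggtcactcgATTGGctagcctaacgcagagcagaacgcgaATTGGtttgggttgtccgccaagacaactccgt
In these runs Upp2 carried CCAAT, and Atp5b and Arntl each carried 3 copies of CCAAT or of its other strand, ATTGG, the motif of NF-Y. Foxj3, Alcam and Kcnh2 carried GGGCGGG, the box bound by SP and KLF proteins, and those of Stx16 and Slc44a1 held no match. The peaks over these runs had strengths, the authors' signal value per peak, of 697 at Stx16, 308 at Slc44a1, 270 at Upp2, 176 at Foxj3, 175 at Alcam, 34.6 at Kcnh2, 64.9 at Atp5b and 144 at Arntl. None of the 8 runs held a Hox motif searched.

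The same motifs were counted on both strands in 32851 promoter windows of 300 bp, from 250 bases before to 50 after each RefSeq start. These windows belong to 27025 genes, so some genes have several, and windows that overlap can share sequence and a peak. The intervals given for window shares treat each window as separate, and can therefore be too narrow. Windows of chromosome 18 were not analysed here. Of the 10981 genes named in the peak list, 8447 have a window in the promoter table. A Hoxb13 peak covered part of 5847 windows (17.8%), and a summit fell in 2484. Windows with a peak were rich in G and C, with a median of 64.0% against 50.7% without a peak and 24 against 5 CpG dinucleotides. The AT-rich form CAATAAA, a Hoxb13 motif, was in 2.36% of the windows with a peak and in 4.60% of all windows. The form with a CpG, TCGTAAA, was in 0.701% (exact binomial 95% interval 0.504 to 0.95) and 0.597%. TTTATGG, a posterior Hox core, was in 1.45% and 2.75%, TGACAG, the Meis motif, in 15.7% and 19.2%, and the Pbx-Hox motif TGATTGAT in 0.205% and 0.746%. Of these 5 motifs, 4 were less frequent in windows with a peak than in all windows. The share of TCGTAAA did not differ from that of all windows beyond its interval. A motif in a window that a peak covers only in part need not lie under the peak. These shares also make no allowance for base composition, and of the 5 motifs only CAATAAA was also counted by G and C content, as given below.

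Motifs common in G- and C-rich promoters went the other way. GGGCGGG was in 55.5% of the windows with a peak and 25.6% of all, CCGGAAG of the ETS factors in 19.9% and 8.86%, and GCGCATGCG of NRF1 in 4.00% and 1.75%. CACGTG, the E-box of clock and MYC factors, was in 9.87% and 7.15%, and TGACGTCA of CREB in 3.27% and 1.79%. Motifs of GATA, TEAD, MEF2 and AP-1 factors, which act in the heart among other tissues, had lower or like shares with a peak. No allowance for base composition was made for these. AGATAA of GATA factors was in 3.76% against 11.2%, GGAATG of TEAD in 10.4% against 14.7%, CTATTTATA of MEF2 in 0.410% (0.121% where the window held the summit) against 0.429% and TGACTCA of AP-1 in 2.67% against 5.20%. The motif CCAAT was in 39.6% of the windows with a peak and in 37.4% of all windows. Among the 249 windows that make up the strongest 10% of those with a summit, a group chosen after the values were seen, it was in 147, or 59.0% (exact binomial 95% interval 52.6 to 65.2, for counting error only). CAATAAA was in 13 of the same 249 windows, or 5.22% (2.81 to 8.76), which was not below the 4.60% of all windows.

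Base composition differs between these windows, so 4 of the motifs were also counted within bands of G and C content. At 55% to 65%, CCAAT was in 47.0% of the 2261 windows with a peak, in 34.3% of those without and in 75% of the 104 strongest. At 45% to 55% the shares were 49.6%, 38.8% and, among 25 of the strongest, 84.0%. Above 65% they were 30.98%, 25.6% and, among 119, 39.5%. Below 45%, where 69 windows had a peak, CCAAT was less frequent with a peak, at 29.0% against 41.6%. CAATAAA was in 3.32% of the windows with a peak and 1.66% of those without at 55% to 65%, in 5.51% and 4.65% at 45% to 55%, in 0.512% and 0.458% above 65% and in 8.70% and 10.7% below 45%. Only at 55% to 65% did the share of CAATAAA with a peak differ from the share without beyond its exact binomial 95% interval, which ran from 2.62% to 4.14%. Among the strongest windows CAATAAA was in 5 of 25 at 45% to 55%, in 6 of 104 at 55% to 65% and in 2 of 119 above 65%. GGGCGGG was in 71.9% of the windows with a peak and 68.1% of those without above 65%, in 48.7% and 33.4% at 55% to 65% and in 22.1% and 8.04% at 45% to 55%. CCGGAAG was in 18.8% and 13.0% above 65% and in 21.6% and 12.4% at 55% to 65%. A match is a string of letters and not a bound site, and sequence under peaks away from promoters was not analysed here.

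Strength varied little over most of the list and had a long tail. Its lowest value was 17.8, its quartiles 19.1, 21.4 and 27.0, and its 90th and 99th percentiles 36.3 and 88.0. Only 172 peaks (0.772%) were over 100. Nearly all peaks, 22018 or 98.8%, had a width of 396 bp, and the other 266, from 99 to 620 bp wide, had a median strength of 119 against 21.3. Of all peaks 2400 overlapped another peak of the list, in 1175 joined regions of up to 4 peaks, and 69.6% of these regions were promoters. Each peak was counted as listed.

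Summits at gene starts lay mostly just inside the gene. Of all summits 8721 (39.1%) were within 1 kb of the listed start site, and 5528 of these, or 63.4% (exact binomial 95% interval 62.4 to 64.4, for counting error only), were downstream of it. The median summit lay 99 bp into the gene, with quartiles of −120 and 248 bp, and 5962 summits (68.4%) were within 300 bp. The fullest 100 bp stretch was the one from 100 to 200 bp downstream. The position barely depended on strength, since the downstream share was between 60.2% and 66.2%, and the median offset between 82 and 120.5 bp, in each of 10 equal bins of the list by strength. Outside the promoter class 7944 peaks were downstream of the nearest start and 5360 upstream of it. Many of these were annotated to introns (5223), exons (1046) or 3' UTRs (664), so the side is partly fixed by the annotation. Intergenic peaks were not counted apart.

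**Figure D1:**
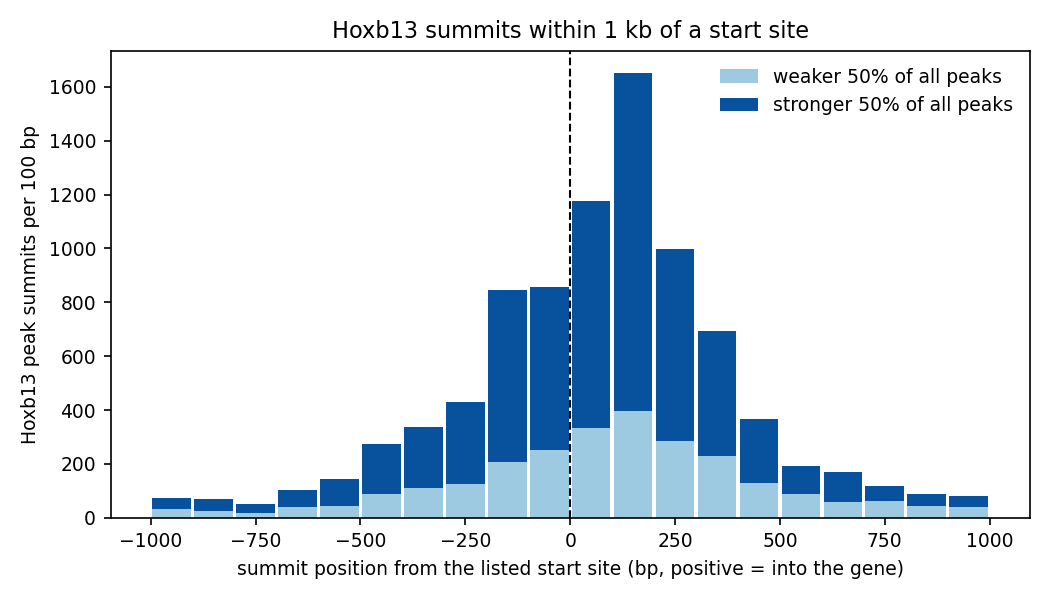
Histogram of Hoxb13 summits by distance from the listed start site, in 100 bp steps from 1 kb before to 1 kb into the gene, stacked by the stronger and weaker 50% of all peaks. The tallest bar, from 100 to 200 bp into the gene, is the same for both colours, and 63.4% of the 8721 summits lie right of the dashed line at the start site.

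Strength fell with distance from a start site. Peaks that covered a start site, 4448 or 20.0% of the list, had a median strength of 26.1. The median was 24.0 for the 4532 peaks up to 1 kb away, 20.9 for the 4152 at 1 to 10 kb, 20.3 for the 5123 at 10 to 50 kb, 19.9 for the 1741 at 50 to 100 kb and 19.3 for the 2288 beyond 100 kb. By annotation class the promoter median of 25.03 was 1.25 times the intergenic median of 20.0, and introns had 20.1. The upper tail did not follow this order: the 99th percentile was 118 for intergenic peaks and 95.4 for promoter peaks, and 71 intergenic and 81 promoter peaks exceeded 100. Of the 50 strongest peaks 26 were intergenic, 16 lay over 100 kb from a start site and 36 had no other peak within 10 kb. Over all peaks the shares were 25.3%, 10.3% and 50.1%. None of the 50 had the common width of 396 bp.

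The promoter share fell at each step through the 10 bins of strength. It was 71.5%, 64.8%, 58.0%, 48.0% and 37.4% in the stronger 5 bins and 31.1%, 28.8%, 24.1%, 20.9% and 18.4% in the weaker 5. The intron share rose from 7.94% to 32.5% and the intergenic share from 15.2% to 36.3% between the strongest and the weakest bin. Among intron peaks 1929 of 5223 (36.9%) were in the first intron, 917 (17.6%) in the second and 545 (10.4%) in the third. These shares make no allowance for the number or length of introns. In transcripts with several introns 9.88% of intron peaks were in the last, where 14.2% would be if peaks fell evenly over intron numbers. Among peaks in exons of transcripts with several exons, 16.6% were in the last exon, where 13.6% would be if peaks fell evenly over exon numbers.

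**Figure D2:**
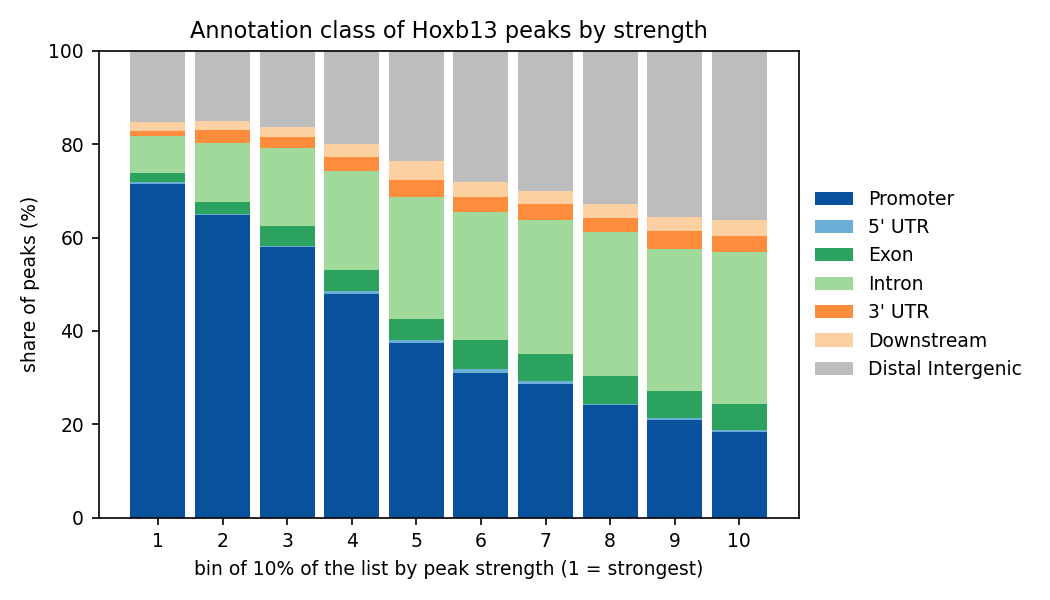
Stacked bars of the share of Hoxb13 peaks in each annotation class (percent of peaks) for each of 10 equal bins of the list by strength, from 1, the strongest, to 10. The promoter share drops from 71.5% to 18.4% while the intron and intergenic shares grow.

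The strongest peak of each class shows how far strong peaks could lie from a gene start. Stx16 held the strongest promoter peak, 697, which was also the strongest of the list (chr2:174075867-174076369). An exon peak of strength 497 was assigned to Jun, the AP-1 subunit, from 109 kb away, inside another transcript. The strongest intron peak, 328, lay in the third intron of Sntg1, a syntrophin, 409 kb from the listed start. In intergenic sequence it was a peak of 377 by Bahcc1, a chromatin protein, 30.9 kb away. The other classes had lower maxima: 74.7 in the 3' UTR of Pln, the calcium pump inhibitor phospholamban, 48.7 in the 5' UTR of Gnas, the stimulatory G protein subunit, and 181 downstream of a gene near Vmn1r65, a vomeronasal receptor. Other strong promoter peaks among the first 10 were at Grb10, a growth factor receptor adaptor (474), and Csnk1d, a kinase of the circadian clock (382). The remaining peaks among the first 10 were assigned to Olfr914, Iars, Tle2, Lbr and Vmn2r18, with strengths from 341 to 371.

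Peak density followed gene density along the autosomes. Chromosome 11 had the highest density, with 1714 peaks or 14.4 per Mb of the span covered by peaks, followed by chromosome 19 with 12.4, 17 with 11.7 and 7 with 10.4. Chromosomes 1 and 14 had the lowest density, 7.28 per Mb each. Over the 19 autosomes the density had a Pearson correlation of 0.833 and a Spearman correlation of 0.847 with protein-coding genes per Mb, given as a description because all chromosomes come from the same pooled libraries. Counted per protein-coding gene the order changed, with 1.596 peaks on chromosome 18 and 0.729 on chromosome 7. The promoter share was 47.9% on chromosome 11 and 32.7% on chromosome 1. The strongest peaks of the remaining autosomes were assigned to Rps3a1 on chromosome 3 (189), Klrb1a on 6 (267), Rprl3 on 8 (308), Rps7 on 12 (285), Fut11 on 14 (138), Acot10 on 15 (247), 4930529L06Rik on 16 (181), Ddx39b on 17 (164), Smad7 on 18 (190) and Slc22a26 on 19 (192). The peaks assigned to Acot10, Slc22a26 and 4930529L06Rik were intergenic, 651, 43.8 and 9.76 kb from the start. That of Klrb1a was in an intron, 8.99 kb from the start, and the others were promoter peaks.

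Chromosome X stood far below the autosomes. It held 204 peaks, 1.23 per Mb and 0.211 per protein-coding gene, although its gene density, 5.84 per Mb, was that of chromosomes 12 and 18, which had 7.32 and 9.32 peaks per Mb. The Meis1 list had the same feature, with 1.26 peaks per Mb on X and 9.74 to 15.2 on the autosomes. Of the X peaks 99 were in promoters, and their median strength was 21.7, against 21.3 on the autosomes. Strong peaks were a larger share on X, where 12 (5.88%) exceeded 100, against 0.725% on the autosomes. The strongest, 285, lay 6.52 kb from Fam47c. Among the 204 X peaks 20 were assigned to genes of the Btbd35f family. Of these 12 formed 1 intergenic cluster over 24.8 kb, assigned to Btbd35f18, a group chosen after its values were seen. No peak was on Y, and the labels do not give the sex of the mice.

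**Figure D3:**
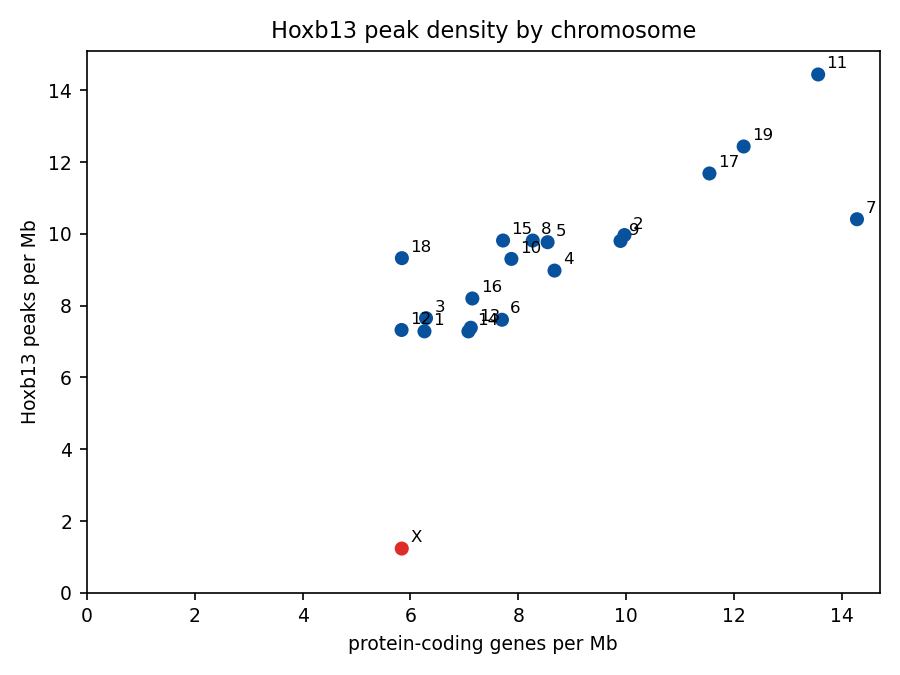
Hoxb13 peaks per Mb against protein-coding genes per Mb, 1 point per chromosome, with X in red. The autosomes rise from 7.28 to 14.4 peaks per Mb with gene density, and X lies apart at 1.23.

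Many peaks stood in rows along heart genes. With neighbours joined when their summits were at most 10 kb apart, 11162 peaks (50.1%) were alone and 6292 peaks (28.2%, exact binomial 95% interval 27.6 to 28.8) lay in 1402 clusters of 3 or more. In the Meis1 list 8.84% of peaks lay in such clusters, and its largest had 21 peaks. The 55 Hoxb13 clusters of 10 or more held 879 peaks, of which 17.3% were in exons (11.5% without the clusters of Ttn, a setting added after the data were seen), 33.3% in introns and 20.9% in promoters. Of the peaks that stood alone 3.53% were in exons, 24.2% in introns and 36.3% in promoters. Median strength was 23.3 in the clusters of 10 or more and 20.4 for peaks alone.

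The largest cluster, 57 peaks over 77.6 kb (chr14:54937705-55015288), covered the paired genes of the cardiac myosin heavy chains. Myh6 encodes the alpha chain of the adult mouse ventricle and Myh7 the beta chain of the fetal ventricle. The authors assigned 15 of the peaks to Myh6, 15 to Myh7, 12 to Mir208a, 4 to Mhrt, a noncoding RNA antisense to Myh7, 3 to Mir208b and the rest to the neighbours Cmtm5 and Ngdn. Strength ran from 17.9 to 86.4 with a median of 27.8, and 22 of the peaks were in exons. Within the 26.1 kb body of Myh6 there were 24 summits, 9.20 per 10 kb, with a median spacing of 988 bp and strengths from 20.0 to 53.4. Within the 23.9 kb of Myh7 there were 14, or 5.85 per 10 kb. The microRNAs of the locus lie in introns of the myosin genes and share their seed, the bases that pair with targets, which is shown in capitals. RefSeq gives these mature sequences:
mmu-miR-208a-3p: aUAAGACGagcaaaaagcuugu
mmu-miR-208b-3p: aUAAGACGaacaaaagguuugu
The nearest Hoxb13 summit lay 33 bp from the mature miR-208a-3p and 2502 bp from miR-208b-3p. Another cluster of 18 peaks covered Egfl7, an endothelial secreted protein, and the microRNA in its intron, miR-126a, with the nearest summit 805 bp from the mature sequence.

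Titin, the giant spring protein of the sarcomere, had the most peaks of any gene. The authors assigned 93 to Ttn, 63 of them in exons, 22 in introns and 5 in promoters, with a highest strength of 64.5 in an intron 4.44 kb into the gene. Its 278.6 kb body (chr2:76703980-76982557) held 90 summits, 3.23 per 10 kb, with a median spacing of 2191 bp and a median strength of 21.5. The peaks formed clusters of 41 over 117 kb, 11 over 29.4 kb and 36 over 91.3 kb, the last with 1 peak of the neighbour Plekha3. Fhl2, a LIM-domain protein abundant in the heart (chr1:43123071-43198343), followed with 41 peaks. Its cluster of 46 over 80.5 kb included 10 assigned to the neighbour AI597479, and 33 of the 46 were in introns. Atp2a2, the calcium pump of the sarcoplasmic reticulum (chr5:122453513-122502225), had 29 peaks, and its cluster of 39 over 80.9 kb took in 10 assigned to Anapc7.

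The other genes among the 10 with the most peaks were Tcf4, a basic helix-loop-helix factor (28), Tns1, the focal adhesion protein tensin (25), C130026I21Rik (23), Rbm20, the splicing factor of titin (23), Dysf, the membrane repair protein dysferlin (22), Ablim1, an actin-binding LIM protein (21), and Fhod3, a formin of the sarcomere (21). A longer gene offers more room for peaks, so summits were also set against length. Of 13887 gene bodies of at least 10 kb 53.9% held no summit, and those with 1 or more had a median of 0.327 per 10 kb and a 90th percentile of 0.972. Ryr2, the calcium release channel, had 23 summits in a body of 553.8 kb, which is 0.415 per 10 kb and near that median. Against the same scale Myl2, the ventricular regulatory light chain, had 7.71 per 10 kb, Tpm1, a tropomyosin, 5.54, Gja1, the main connexin of the ventricle, 5.34, Fhl2 5.18, Atp2a2 4.93 and Ldb3, a Z-disc protein, 3.62. The RefSeq body of Myl2, 20.75 kb, is longer than the 5.875 kb transcript of the peak list and overlaps that of Ccdc63. Of its 16 summits 3 were annotated as intergenic and 1 as downstream. The body of Pln, at 8.31 kb, is shorter than the 10 kb required here, and held 8 summits. Outside muscle genes, the noncoding RNAs Neat1 and Malat1 shared a cluster of 32 peaks over 62.8 kb, and Midn, a nuclear protein, had 6.47 summits per 10 kb. Slc9a3r2 had 6.35, Agpat2 6.16, 1600014C10Rik 5.57 and Brd2 5.56, each above Tpm1 on this scale. The muscle microRNA genes Mir133a-2 and Mir1a-1 lay in a cluster of 18. These were named after their values were seen.

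**Figure D4:**
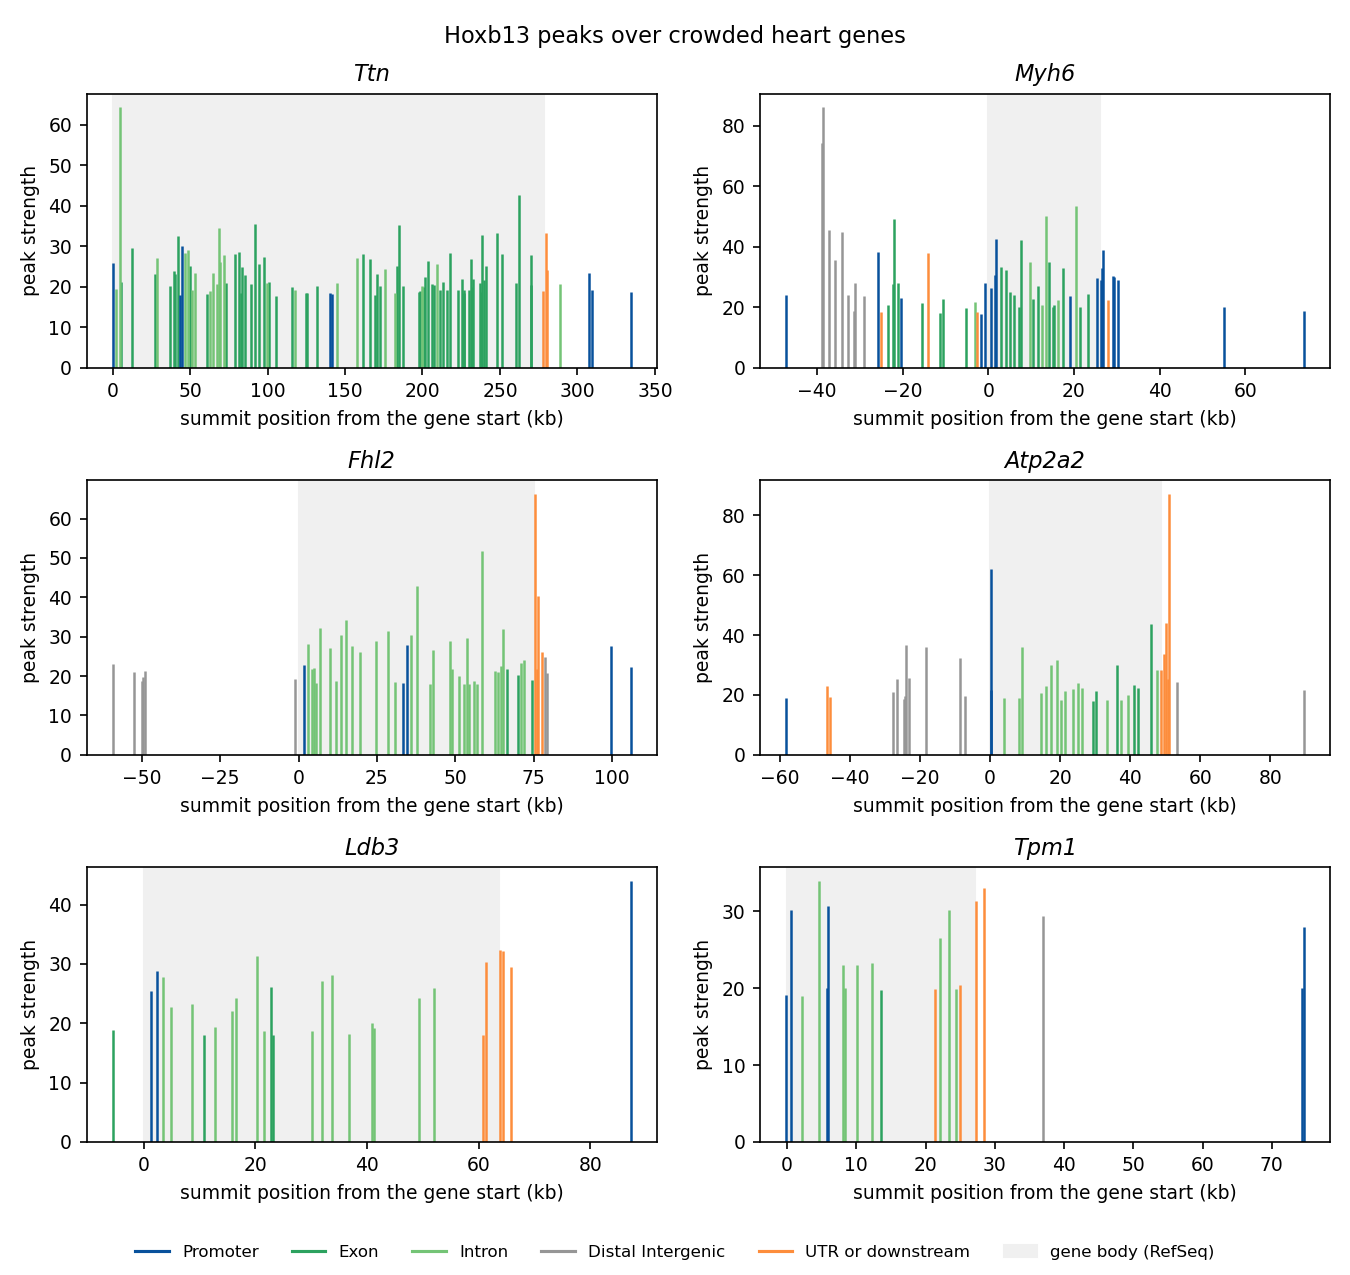
Peak strength against summit position in kb from the gene start, 1 line per Hoxb13 peak coloured by annotation class, for Ttn, Myh6, Fhl2, Atp2a2, Ldb3 and Tpm1, with the gene body in grey. Lines run through the whole body rather than at the start alone, with 90 summits in Ttn, 24 in Myh6, 39 in Fhl2, 24 in Atp2a2, 23 in Ldb3 and 15 in Tpm1.

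Most genes had few peaks. Of the 10981 genes named 6090 (55.5%) had 1 peak, and 805 (7.33%) had 5 or more and held 5989 peaks, or 26.9% of the list. Protein-coding genes took 88.5% of the peaks, lncRNA genes 7.77% and microRNA genes 2.61%. For the gene lists below, the background was all 21896 protein-coding genes, of which 9709 (44.3%) had a peak, 6723 (30.7%) a promoter peak and 713 (3.26%) 5 peaks or more. Lists are described by counts and strengths alone. Peaks go to the nearest start, so a member with a count of 0 can still hold a summit assigned elsewhere.

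Most contractile genes had a promoter peak, and some had many peaks elsewhere. Of 24 sarcomere and Z-disc genes 22 had a peak, 19 a promoter peak and 14 had 5 or more, and the list held 251 peaks, 209 of them outside promoters, in the gene or in intergenic and downstream sequence. Ttn alone had 93 of these 251 and 88 of the 209, which left 158 and 121 at the other 23 genes, a count added after the data were seen. Fewer than 5 peaks were at 10 of the 24 genes. The strongest promoter peaks were at Myl2 (44.3), Myh6 (42.5) and Myh7 (38.1). Those of the list had a median of 26.1, close to the 26.4 of all protein-coding genes with a promoter peak. Acta1, the skeletal alpha-actin, and Nebl, a nebulin-related Z-disc protein, had no peak assigned, though 3 summits lay inside the long body of Nebl. Actc1, the cardiac alpha-actin, had a promoter peak of 27.6 and its strongest, 145, in an intron annotation 6.36 kb away.

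Among 16 genes of calcium cycling 13 had a peak, 12 a promoter peak and 9 had 5 or more. The promoter peaks of Camk2d, a calcium-dependent kinase (70.7), Atp2a2 (62.1) and Pln (50.6) were the strongest, and the median was 27.3. Sln, the atrial pump inhibitor sarcolipin, Hrc, a calcium-binding protein of the reticulum, and S100a1 had none. Ion channels and connexins had 10 of 13 with a peak and 5 with a promoter peak, led by Kcnh2 (34.6), Gja1 (24.1) and Kcnq1 (23.4). The median of the 5 was 23.4, below the 26.4 of all protein-coding genes with a promoter peak. Gja1 had 13 peaks, the strongest of them, 59.9, lying 12.7 kb from the start. Kcnj12, Kcnd2 and Gja5, the connexin of the conduction system, had none. Of 15 cardiac transcription factors 14 had a peak, 9 a promoter peak and 7 had 5 or more. Tead1 (42.9), Mef2d (42.5) and Mef2a (32.5) had the strongest promoter peaks. The median of the 9 was 24.1, also below that of all protein-coding genes. Myocd, the coactivator of serum response factor, had the most peaks, 16, and none in a promoter. Gata6 had none assigned, although its body held 2 summits.

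Genes of oxidative phosphorylation had promoter peaks and few others. Of 21 such genes 20 had a peak, each of them in the promoter, and none had 5 or more. The list held 36 peaks, 11 of them outside promoters. Their median promoter strength was 33.6, and Atp5b (64.9), Uqcrfs1, the iron-sulphur subunit of complex III (42.0), and Atp5a1 (39.8) led. Cycs, cytochrome c, had the most peaks, 4, and Ndufb8, a complex I subunit, had none. Of 16 genes of glycolysis and glucose uptake 16 had a peak and 14 a promoter peak, led by Hk1, a hexokinase (48.9), Aldoa, an aldolase (43.3), and Pfkm, the muscle phosphofructokinase (38.4), with most peaks, 6, at Gapdh. The median promoter strength of the glycolysis list was 28.1. Of 21 fatty acid oxidation genes 19 had a peak and 14 a promoter peak, with a median of 29.0. Hadhb, of the trifunctional protein (55.3), Cpt1b, the muscle carnitine acyltransferase (40.0), and Etfb, an electron carrier (38.3), led them. Cd36, the fatty acid transporter, had 16 peaks, while Echs1 and Etfdh had none.

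Ribosomal protein genes had the strongest promoter peaks of the lists. Of the 22 in the list 18 had a peak and 16 a promoter peak, none had 5 or more, and the most was 3 at Rps24. The median promoter strength was 96.8. Rpl13 reached 251 (chr8:123102413-123102657), Rpl11 153 and Rps6 138, with summits 192, 138 and 177 bp into the gene. Counted after these values were seen, the symbols of cytosolic ribosomal proteins matched 84 protein-coding genes, 63 of which (75%) had a promoter peak. Their median strength was 57.2, with quartiles of 26.7 and 95.5, against 26.3 and an upper quartile of 34.2 for the other 6660 genes with one. Strength exceeded 100 at 14 of the 63 (22.2%) and at 61 of the others (0.916%). Their summits were downstream of the start at 55 of 63 (87.3%, against 64.1% for the others), with a median of 152 bp and quartiles of 123 and 186.5 bp. For the other genes the median was 99 bp and the quartiles −104 and 233 bp. Ribosomal protein genes have many processed pseudogene copies, and how reads shared between copies were handled is not stated in the sources used here.

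Clock genes had a peak at 16 of 16 and a promoter peak at 14, with a median strength of 36.3. Arntl (144), Rora, an activator of Arntl (68.7), and Nr1d2, a repressor of it (55.2), had the strongest, and Tef, a clock output factor, had the most peaks, 7. Immediate early and AP-1 genes had a peak at 17 of 18, a promoter peak at 14 and 5 or more at 10. The promoter peaks of Fosl2 (62.8) and Jun (58.8), AP-1 subunits, and Dusp1, a MAP kinase phosphatase (41.5), led. The median promoter strength of these genes was 29.6. Jun and Dusp1 had 12 peaks each, and Egr2 none. Heat shock and chaperone genes had 12 of 15 with a peak and 10 with a promoter peak, led by Hspa8 (46.8), Hspa5 (42.0) and Dnaja1 (40.1). Hspa8 also had the most, 5, and Hspa1b, Hsp90aa1 and Hspe1 had none. The median promoter strength of this list was 31.9.

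The cell cycle lists differed in how many members had a peak. Of 16 inhibitors 12 had a peak, each with a promoter peak, at a median strength of 30.5. Cdkn2c and Cdkn2d, inhibitors of the cyclin D kinases, had peaks of 61.7 and 46.0, and Btg2, an antiproliferative protein with the most peaks, 6, had one of 41.8. The 4 without a peak were Cdkn2a, Cdkn2b, Rb1 and Rbl2. Of 22 activators 11 had a peak and 6 a promoter peak, shares of 50% and 27.3% beside the 44.3% and 30.7% of all protein-coding genes. The median of these 6 was 41.3: E2f3, an S-phase transcription factor, had 144, Top2a, a topoisomerase of dividing cells, 61.4, Ccnd3, a D cyclin, 44.6. Ccnd2 (25.1) and Cdk2 (24.5) were below the 26.4 of all protein-coding genes. Ccnd1 had 9 peaks, none in a promoter. The activators with no peak assigned were Ccna2, Ccnb1, Ccne1, E2f1, E2f2, Mki67, Plk1, Aurka, Aurkb, Mcm2 and Mcm5, though 1 summit lay inside the body of Aurka. Ccnb2, a mitotic cyclin, had 2 peaks and its kinase partner gene Cdk1 had 1, all of them outside promoters. No difference between the lists was tested.

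Of the calcineurin and NFAT genes 9 of 12 had a peak and 7 a promoter peak. Nfatc1 (50.3) and Nfatc2 (38.5), the transcription factors that calcineurin activates, and Ppp3ca, its catalytic subunit (28.9), had the strongest, and Ppp3ca had the most peaks, 5. Ppp3cb, Rcan3 and Nfatc3 had none assigned, with 1 summit inside the body of Ppp3cb. The median promoter strength of this list was 27.3. TALE homeobox genes, the partners of Hox proteins, had a peak at 10 of 11 and a promoter peak at 8, but the strengths were modest. The median was 22.2, Pknox1 had 44.1, Tgif1 31.1 and Pbx2 24.8, Meis1 itself had 3 peaks with a promoter peak of 21.0, and Pbx4 had none. Of 39 Hox genes 6 had a peak and 3 a promoter peak, at Hoxb5 (21.3), Hoxd12 (19.6) and Hoxa3 (18.1), each below the median of 21.4 over all peaks. Hoxb13 had no peak.

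Markers of other cell types, of the ventricle and of other tissues, were unevenly represented. Endothelial markers had a peak at 12 of 12, a promoter peak at 8 and 5 or more at 5. Kdr, a VEGF receptor, had 16 peaks, and the strongest promoter peaks were at Cldn5 (40.0), Egfl7 (28.3) and Pecam1 (28.0), junction and vessel genes. Median promoter strength was 23.6 for the endothelial and 22.0 for the fibroblast markers. Both were below the 26.4 of all protein-coding genes with a promoter peak. Fibroblast markers had 9 of 12 with a peak and 5 with a promoter peak, at Vim (29.9), Col1a1 (27.5), Pdgfra (22.0) and 2 others, while Fn1, Ddr2 and Thy1 had none assigned. Of the leukocyte markers 2 of 12 had a peak, Cd68 with a promoter peak of 32.6 and Cd3e with one of 21.9 outside its promoter. Neuronal markers had 8 of 12 with a peak but 2 with a promoter peak, Stmn2 (19.8) and Slc17a7 (17.8). Their share with any peak, 66.7%, was above the 44.3% of all protein-coding genes. Their promoter share, 16.7%, was below the 30.7%. Of the hepatocyte markers Apoa1 (23.0, in an exon) and Ttr (18.7) had peaks, and none of the 12 had one in the promoter. The part of each cell type in the peaks was not tested.

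**Figure D5:**
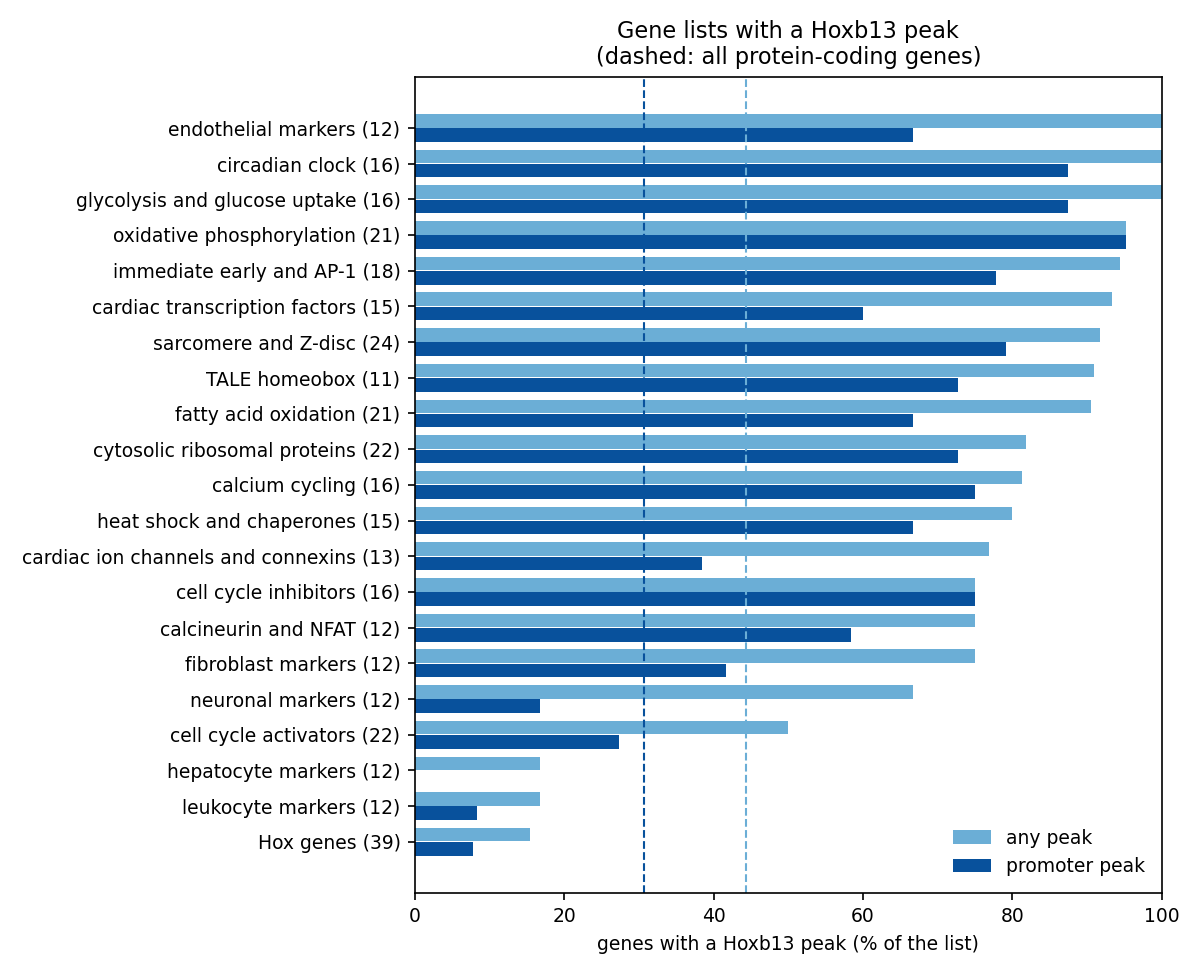
Bars of the share of genes in each list (number of genes in brackets) with any Hoxb13 peak and with a promoter peak, in percent, with dashed lines at 44.3% and 30.7% for all protein-coding genes. Endothelial, clock and glycolysis lists reach 100% for any peak, and the Hox, leukocyte and hepatocyte lists lie below both lines.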

How the data were processed

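Chromatin immunoprecipitation and sequencing libraries came from ventricles at postnatal day 15. The build was mm10, per the submitters' processing notes, which also name ChIPseeker, deepTools 1.6, Picard and Bowtie2 2.2.3 with no role. The peak caller and its settings, and how libraries were joined, are not stated in the sources used here. The deposited Hoxb13 list gives, per peak, a signal value (peak strength) in a numbered column whose place matches the signal field of the narrowPeak format, and a second score, both the authors' values. The files name neither. The score was used only as an alternative. The deposited summit offset, annotation class, nearest gene and start site were used as given, 1 row per peak. Depth was unknown.

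Summit position, clusters (summits at most 10 kb apart, 3 or more peaks), peaks per gene and per Mb, and list counts were computed with Python 3.11.15, pandas 2.3.3, numpy 2.4.6 and SciPy 1.17.1, and tested on simulated data. Of 10981 genes 10969 matched a RefSeq table of GRCm38.p6, the assembly of mm10. Intervals are exact binomial at 95% and cover counting error only, with each peak or promoter window treated as separate. Since the list pools its libraries, there was no test between groups.

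Named genes were those of the 10 strongest peaks, of the strongest peak per class and chromosome, the 10 genes and 5 clusters with most peaks and, per list, up to 3 members by promoter strength, the member with most peaks and members without a peak where 3 or fewer. Other names were chosen after their values were seen. An item that this rule would name is not reported here. The gene lists (21 with 357 entries), tests and alternatives were chosen with earlier results of these data known. Motifs were searched in promoter windows alone, since no genome was used. Alternatives were the stronger 50% of peaks, overlapping peaks merged, other windows and gaps, the summit in place of the peak edge, the commonest width alone and the second score.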

Additional observations from a re-analysis of the deposited data

How the results depend on the processing

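No paired analysis was possible because the deposited values are 1 combined list with no value per library, and for the same reason no replicate could be left out. Of the 22 alternative shares computed for the 11 motifs not named below, 5 fell outside the counting interval of the main share.

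With the stronger 50% of peaks alone, the promoter share became 55.9%, the median distance to a start site 0.347 kb, the share in clusters 21.3%, the highest autosome density over the lowest 2.41 against 1.98, and the number of genes with 5 or more peaks 213 against 805. In promoters of the stronger 50% of promoter peaks, CAATAAA was in 2.78% of windows, CCAAT was in 41.9% and GGGCGGG was in 57.7%, and where the window held the summit CCAAT was in 44.9% and GGGCGGG in 56.8%. The share with CCGGAAG lay within its interval in both settings. With overlapping peaks merged the promoter share was 38.6%, the median distance 5.36 kb, the promoter to intergenic strength ratio 1.27 and the share in clusters 24.3%. The promoter share was 39.1% by summits within 1 kb. The strength ratio was 2.27 with the second score, which is on another scale. The share in clusters was 19.4% with gaps of 5 kb and 45.02% with 25 kb. Counted per protein-coding gene, the highest autosome was 2.19 times the lowest, and these were chromosomes 18 and 7 in place of 11 and 14. Counting only peaks in the gene body or within 10 kb left 405 genes with 5 or more peaks. The 63.4% of near-start summits that were downstream lay between 63.3% and 64.0% in each alternative run. The number of protein-coding genes with a peak ran from 6507 to 9693 against 9709.

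Unknown depth, a list of fixed-width peaks and a single combined call limit the values. Weak peaks near the lowest strength, and counts of 0, depend on the authors' threshold.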
